A study of Mus musculus with 10 samples.

Results

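The transcripts described here are those of 10 genes that carry the signal of transforming growth factor β (TGFβ) in and around endothelial cells, namely the ligand genes *Tgfb1*, *Tgfb2* and *Tgfb3*, the latent binding protein genes *Ltbp3* and *Ltbp4*, the signalling receptor genes *Tgfbr1*, *Tgfbr2* and *Acvrl1*, and the co-receptor genes *Tgfbr3* and *Eng*. They were taken by gene symbol from a table of 27024 named genes, and all 10 were found. The cells were bEnd.3, an immortalised line of mouse brain endothelial cells, labelled wild type. The line was given either saline or StcE, a bacterial protease that cuts proteins bearing dense mucin-type O-glycans, and the comparison asks how removal of such proteins changes the transcripts of brain endothelial cells. The saline group held 5 samples (replicates 1, 2, 3, 4 and 5), given saline for 16 h. The StcE group held 5 samples (replicates 1, 2, 3, 5 and 6), given 5 nM of the enzyme for the same 16 h. All samples came from this 1 cell line, which was grown without the pericytes, astrocytes and blood flow that brain vessels have, and 0 samples received an inactive form of the enzyme. The labels do not say whether the samples of a group were separate cultures, so the p-values measure the spread between these samples, which may be technical.

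As background, TGFβ ligands are secreted in a latent form, in which the mature growth factor stays wrapped in its own propeptide, and latent TGFβ binding proteins tether that complex to the extracellular matrix. Once released, the ligand brings together a type II receptor, encoded by *Tgfbr2*, and a type I receptor, which in most cells is the product of *Tgfbr1* (ALK5). Endothelial cells also have a second type I receptor, ALK1, encoded by *Acvrl1*, which answers mainly to BMP9 and BMP10, and endoglin, encoded by *Eng*, is the co-receptor that works with it. Inherited loss of 1 copy of the human *ENG* or *ACVRL1* gene causes hereditary haemorrhagic telangiectasia, a disease of fragile and malformed vessels, and both genes are therefore much studied in vascular biology.

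Levels were given as FPKM, the number of sequenced fragments per kilobase of gene length on a scale common to all samples. Values can thus be compared between samples, and between genes as far as the gene length used holds for them. Fragments recovered from these values came to 21922594 to 29017310 per saline sample and 21864604 to 33147402 per StcE sample. These sums cover only the 25898 genes whose values came back as whole fragments in every sample, so they do not give the full depth. On the scale of the samples, 3 fragments on a gene of 1 kilobase correspond to 0.0857 to 0.131 FPKM. Of 12 endothelial marker genes, all were expressed, and the highest was *Cdh5*, encoding VE-cadherin, with a mean of 485.9 FPKM. Markers of other cell types were near 0, with summed levels of at most 0.276 FPKM in any sample for mural cells, 0.115 for astrocytes, 0.109 for macrophages and microglia and 0.238 for epithelial cells. The summed fibroblast markers ranged from 1.08 to 1.43 FPKM, which came almost entirely from *Pdgfra*, since *Dcn* was at 0 in 9 of the 10 samples. *Des*, *Aqp4*, *Slc1a3*, *Ptprc*, *Cx3cr1* and *Epcam* were at 0 in every saline sample and in at least 3 of the 5 StcE samples.

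The ligand and receptor genes moved in different directions after StcE. *Tgfb2* and *Acvrl1* fell, as did *Tgfbr2*, *Ltbp3* and *Ltbp4*, whereas *Tgfb1* rose and neither *Eng* nor *Tgfbr1* passed the test. Values were compared as log2(FPKM + 1) with limma over the 11062 genes with a mean of at least 1 FPKM, and a gene passed where its Benjamini-Hochberg adjusted p was under 0.05. Of the 10 genes, 8 reached this level, and *Tgfb3* and *Tgfbr3* lay below it. Among those 8, 5 were lower (62.5%) and 1 was higher, whereas 6.41% of all tested genes were lower and 5.52% were higher. Lower genes thus made up 53.7% of all that passed, a share that came to 65.6% when samples were rescaled by their summed FPKM and to 49.5% when they were rescaled by the upper quartile. The median log2 fold change of the 8 was -0.23, against -6.6e-04 for all tested genes. *Tgfb2*, *Tgfbr2* and *Acvrl1* are genes that the study itself names from these samples, and the other genes were put beside them with earlier results known, so this count is not independent evidence of a direction. For *Tgfb1* the StcE range lay wholly above the saline range, and in 5 of the 10 genes (*Tgfb2*, *Tgfb3*, *Ltbp3*, *Ltbp4* and *Acvrl1*) the StcE range lay wholly below the saline range. Over all tested genes, 5.8% had such separate ranges with StcE below and 4.85% with StcE above, and the former share was 4.39% over the 16024 genes with a mean of at least 0.1 FPKM, which *Tgfb3* belongs to. In bulk RNA, fewer cells that express a gene and less of its RNA per cell cannot be told apart.

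**Figure D1:**
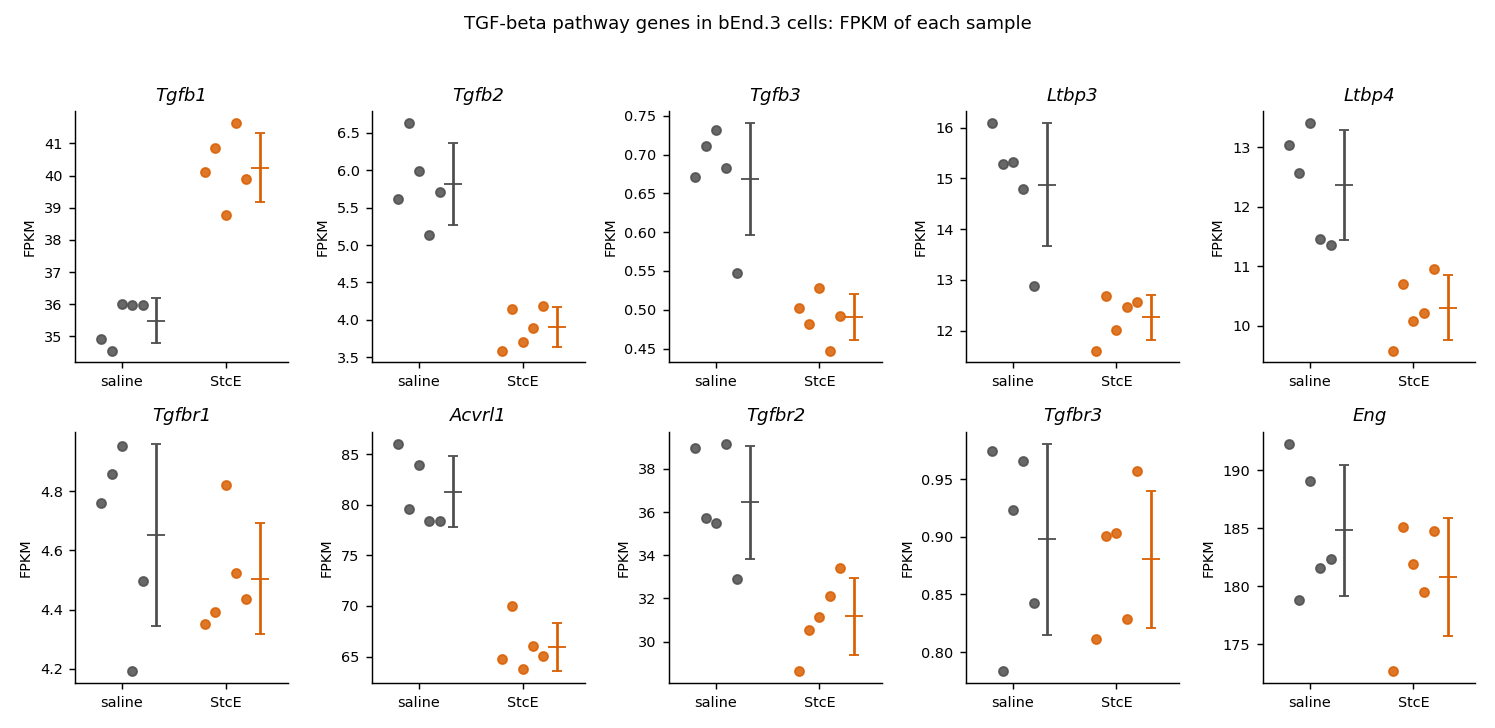
Level of each gene in FPKM (vertical axes, which do not start at 0) in the 5 saline samples (grey) and the 5 StcE samples (orange), with 1 point per sample and the mean ± SD beside the points. *Tgfb1* lies higher after StcE without overlap, *Tgfb2*, *Tgfb3*, *Ltbp3*, *Ltbp4* and *Acvrl1* lie lower without overlap, and the groups of the other 4 genes overlap.

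Because the ligand genes *Tgfb1* and *Tgfb2* moved in opposite directions, the DNA just before each of their start sites is shown here. RefSeq gives 1 promoter for each, and the 250 bases before the start are written 5′ to 3′ on the strand of the gene (GRCm38.p6). Capitals mark matches, on either strand, to the Sp1 motif GGGCGG, the core promoter motif TATAAA, the motif CACGTG of basic helix-loop-helix factors and the TGACG core of sites for CREB and ATF factors.
Tgfb1, chr7:25686752-25687001, plus strand: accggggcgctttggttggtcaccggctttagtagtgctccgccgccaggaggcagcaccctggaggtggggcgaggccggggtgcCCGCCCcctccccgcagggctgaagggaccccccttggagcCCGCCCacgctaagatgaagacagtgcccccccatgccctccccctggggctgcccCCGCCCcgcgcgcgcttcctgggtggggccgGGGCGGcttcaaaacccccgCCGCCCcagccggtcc
Tgfb2, chr1:186705990-186706239, minus strand: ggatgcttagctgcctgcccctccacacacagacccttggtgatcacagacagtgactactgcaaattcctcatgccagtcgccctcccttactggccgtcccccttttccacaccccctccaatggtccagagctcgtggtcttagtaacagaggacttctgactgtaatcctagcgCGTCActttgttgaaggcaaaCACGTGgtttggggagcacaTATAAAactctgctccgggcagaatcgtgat
The *Tgfb1* window was rich in G and C, with a GC content of 75.2% and 21 CpG dinucleotides, and held GGGCGG 5 times, at 164, 123, 67, 36 and 16 bases before the start, and no TATAAA. The *Tgfb2* window had a GC content of 53.6% and 8 CpG dinucleotides, with TATAAA at 31, CACGTG at 51 and TGACG at 72 bases before the start, and no GGGCGG. Over all 32851 promoters of the table, the median GC content was 52.4% and the median number of CpG dinucleotides was 6, while 32.7% of windows of this length held GGGCGG, 12.4% held TATAAA, 6.02% held CACGTG and 17.8% held TGACG. A further motif that was searched, CCGGAAG, had no match in either window and was held by 6.91% of all windows. Of the other genes with an entry, *Ltbp4*, which fell, had 3 windows with a GC content of 64.4 to 79.2% and 3 to 7 matches to GGGCGG. *Tgfbr1*, which did not pass the test, had 1 window of 74.8% with 2 matches and 1 of 52.8% with 0. The windows of *Tgfbr2* (58.4%), *Eng* (62.4%) and *Ltbp3* (47.2%) held 0. A link between these windows and the direction of change was not tested. The matches describe the letters in the windows and were not tied to binding of any factor.

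*Tgfb1*, the most highly expressed of the ligand genes, encodes a ligand made by most cells of the vessel wall (chromosome 7, 25687002 to 25705077, plus strand, GRCm38). Its FPKM was 34.9, 34.6, 36.0, 36.0 and 36.0 in the saline samples and 40.1, 40.9, 38.8, 41.6 and 39.9 in the StcE samples. The lowest StcE sample, replicate 3, was still above the highest saline samples, and the saline values were close together. The mean rose from 35.5 ± 0.697 to 40.2 ± 1.07 FPKM (SD, n = 5 each), an increase of 13.4%. On the log2(FPKM + 1) scale the difference was 0.18, with a standard error of 0.0242 and a 95% interval from 0.12 to 0.23 (limma adjusted p = 9.2e-04). An exact two-sided permutation test over the 252 arrangements of 5 against 5 samples gave p = 0.00794, which is as low as this number of samples can reach. *Tgfb1* had neither a near-identical copy elsewhere nor an overlapping gene, and 4160 to 7353 fragments per sample lay behind its values.

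*Tgfb2*, whose ligand binds the type II receptor poorly without the co-receptor betaglycan, had the largest fold change of the 8 tested genes (chromosome 1, 186622792 to 186705989, minus strand). The saline samples had 5.61, 6.63, 5.98, 5.13 and 5.71 FPKM, and the StcE samples 3.59, 4.14, 3.71, 3.88 and 4.19. The lowest saline sample, replicate 4, was still above the highest StcE sample, replicate 6. The mean was 32.9% lower after StcE, with a 95% interval of the log2 fold change from -0.60 to -0.35 (limma adjusted p = 3.9e-04), and 0.859% of the tested genes had a fold change of larger size on the log2(FPKM + 1) scale. The change of genes with low FPKM is understated on this scale. An antisense gene, *Gm29491*, overlaps 2.14% of the exon length of *Tgfb2* and the promoter window shown above, and its own level was 0.0297 ± 0.0664 FPKM with saline and 0.0611 ± 0.0705 with StcE.

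*Tgfb3* had the lowest level of the 10 genes and encodes the ligand best known from palate fusion and lung development (chromosome 12, 86056745 to 86079041, minus strand). It was at 0.671, 0.711, 0.732, 0.683 and 0.547 FPKM in the saline samples and at 0.503, 0.481, 0.528, 0.447 and 0.492 in the StcE samples. The groups did not overlap (exact two-sided permutation p = 0.00794), although saline replicate 5 lay much nearer to the StcE samples than to the other saline samples. The mean FPKM was 26.7% lower after StcE, from 0.669 ± 0.0721 to 0.490 ± 0.0298 (SD, n = 5 each). Only 40 to 69 fragments per sample lay behind these values. When genes down to a mean of 0.1 FPKM were admitted, the log2 fold change of -0.16 had a limma adjusted p of 0.0414, at a background of 3.68% of the 16024 genes then tested being lower, and with all genes admitted the adjusted p was 0.0589. A transcript on the opposite strand, *Gm48008*, shares 7.63% of the *Tgfb3* sequence and was itself at 0.0123 ± 0.0276 FPKM with saline and 0.0108 ± 0.0243 with StcE.

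The make-up of the ligand transcripts followed from these values and is given as a description, with no test. The shares depend on the length used for each gene, which for *Tgfb1* is longer than its longest transcript. *Tgfb1* made up 84.6 ± 1.34% of the summed FPKM of the ligand genes with saline (82.5 to 86.1%) and 90.2 ± 0.515% with StcE (89.5 to 90.7%). The share of *Tgfb2* was 13.9 ± 1.28% with saline and 8.74 ± 0.513% with StcE, and that of *Tgfb3* was 1.59 ± 0.171% and 1.10 ± 0.0946% (SD, n = 5 each). As *Tgfb1* was so much the largest, the summed level was 42.0 ± 0.566 FPKM with saline and 44.6 ± 1.15 with StcE, and the lowest StcE sample (43.0) lay above the highest saline sample (42.7). For every 1 FPKM of *Tgfb1* there were 0.164 ± 0.0178 FPKM of *Tgfb2* with saline and 0.0970 ± 0.00624 with StcE.

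Both latent binding protein genes fell by a similar amount. *Ltbp3*, whose product binds the latent complex and helps its secretion (chromosome 19, 5740904 to 5758532, plus strand), had 16.1, 15.3, 15.3, 14.8 and 12.9 FPKM with saline and 11.6, 12.7, 12.0, 12.5 and 12.6 with StcE. The groups lay apart, but by little, since saline replicate 5 at 12.9 was close to StcE replicate 2 at 12.7. The mean was 17.6% lower after StcE, and the log2 fold change of -0.26 had a 95% interval from -0.37 to -0.15 (limma adjusted p = 0.00734, exact permutation p = 0.00794).

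*Ltbp4*, whose product binds mainly the latent form of the *Tgfb1* ligand and also takes part in elastic fibre assembly (chromosome 7, 27305136 to 27337692, minus strand), had 13.0, 12.6, 13.4, 11.5 and 11.4 FPKM with saline and 9.58, 10.7, 10.1, 10.2 and 11.0 with StcE. Every saline sample was above every StcE sample, with replicates 4 and 5 the lowest of the saline group. Its mean was 16.6% lower after StcE (log2 fold change -0.24, 95% interval -0.35 to -0.13, limma adjusted p = 0.00992). The ratio of *Ltbp3* to *Ltbp4* was 1.20 ± 0.0659 with saline and 1.19 ± 0.0288 with StcE, so that the groups overlapped in the balance of the pair while both levels were lower. Other members of the family, looked at after their values were seen, were *Ltbp1*, at 32.7 ± 1.62 FPKM with saline and 30.3 ± 1.71 with StcE (log2 fold change -0.10, limma adjusted p = 0.141), and *Ltbp2*, which lay below the level for testing at 1.15 ± 0.173 and 0.730 ± 0.0419 FPKM, without overlap.

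**Figure D2:**
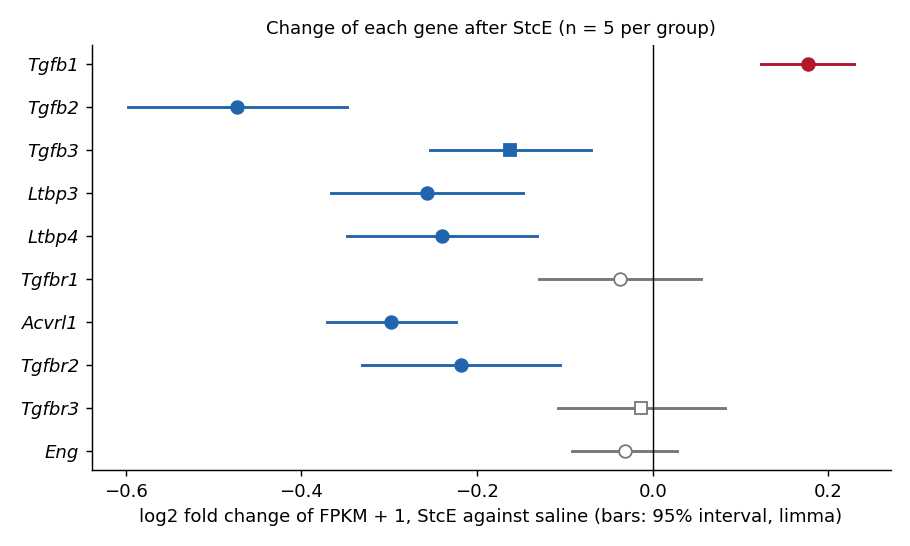
Log2 fold change of FPKM + 1, StcE against saline (horizontal axis), for each gene with its 95% interval from limma (n = 5 per group). Blue marks lower and red higher genes past the threshold, open symbols genes not past it, and squares the genes below a mean of 1 FPKM, taken from the fit with a minimum of 0.1. *Tgfb2* is farthest from 0 at -0.47, and the intervals of *Tgfbr1*, *Tgfbr3* and *Eng* include 0.

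Of the type I receptor genes, *Acvrl1* changed and *Tgfbr1* did not pass the test. *Acvrl1* (chromosome 15, 101128522 to 101145336, plus strand) was at 86.0, 79.5, 83.9, 78.4 and 78.4 FPKM in the saline samples and at 64.7, 70.0, 63.8, 66.0 and 65.1 in the StcE samples. The groups were well apart, with StcE replicate 2 the highest of its group and the other StcE samples close together. The mean was 18.9% lower after StcE, and the 95% interval of its log2 fold change ran from -0.37 to -0.22 (limma adjusted p = 2.6e-04, exact permutation p = 0.00794). The antisense gene *Gm16031*, which overlaps 2.98% of the exon length, was at 3.22 ± 0.626 FPKM with saline and 2.84 ± 0.566 with StcE.

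*Tgfbr1*, which encodes ALK5 (chromosome 4, 47353222 to 47414931, plus strand), had 4.76, 4.86, 4.95, 4.19 and 4.50 FPKM with saline and 4.35, 4.39, 4.82, 4.52 and 4.43 with StcE. The StcE values lay wholly within the range of the saline values. The means were 4.65 ± 0.309 and 4.50 ± 0.187 FPKM (SD, n = 5 each), and the 95% interval of the log2 fold change, from -0.13 to 0.056, leaves room for a small decrease (limma adjusted p = 0.615, exact permutation p = 0.389).

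The balance of the type I receptor transcripts differed accordingly. There were 17.5 ± 0.920 FPKM of *Acvrl1* for every 1 FPKM of *Tgfbr1* with saline (16.4 to 18.7) and 14.7 ± 0.960 with StcE (13.2 to 15.9), and the ranges did not overlap. These ratios describe the values above and carry no test of their own.

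*Tgfbr2*, the type II receptor gene that the ligand binds first (chromosome 9, 116084293 to 116175360, minus strand), had 38.9, 35.7, 35.5, 39.2 and 32.9 FPKM with saline and 28.6, 30.5, 31.2, 32.1 and 33.4 with StcE. Here the groups overlapped, since saline replicate 5 was below StcE replicate 6, and the other 4 saline samples were above every StcE sample. The mean was 14.5% lower after StcE, and the log2 fold change of -0.22 had a 95% interval from -0.33 to -0.11 (limma adjusted p = 0.0194, exact permutation p = 0.0159). With all genes tested, whatever their level, the adjusted p was 0.0651. For every 1 FPKM of *Tgfbr1* there were 7.87 ± 0.913 FPKM of *Tgfbr2* with saline and 6.93 ± 0.430 with StcE, with overlapping ranges.

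**Figure D3:**
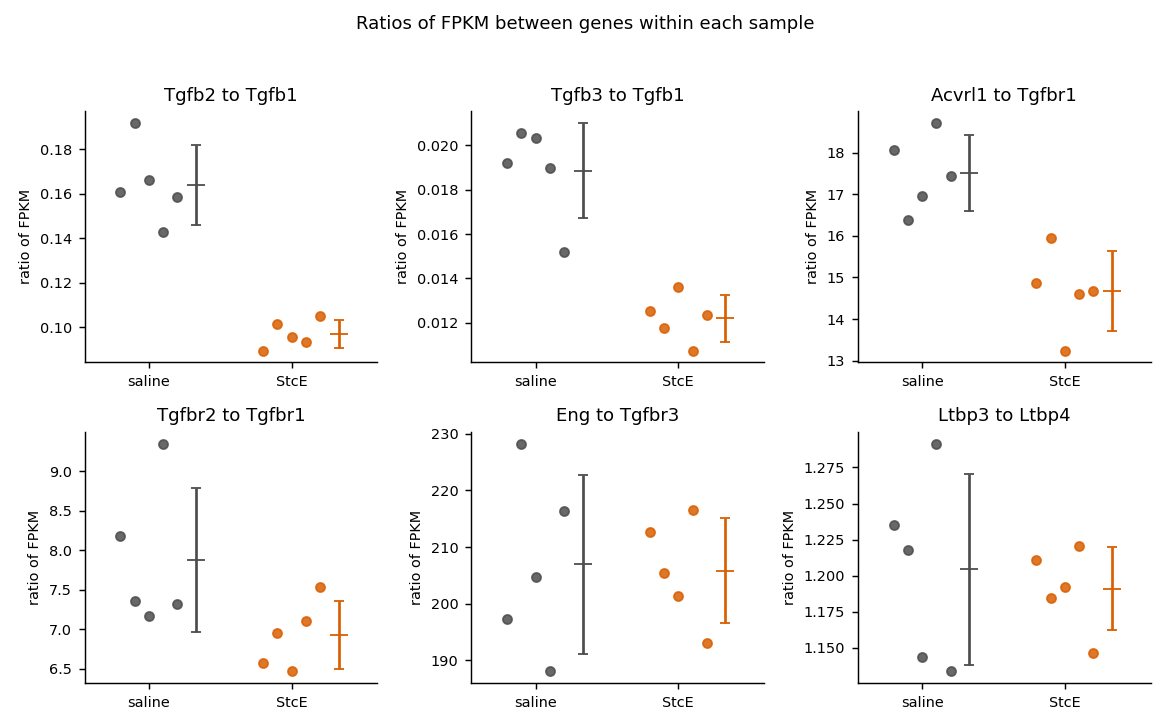
Ratio of the FPKM of 2 genes within each sample (vertical axes, which do not start at 0), for 5 saline (grey) and 5 StcE samples (orange), with mean ± SD. The ratios of *Tgfb2* and *Tgfb3* to *Tgfb1* and of *Acvrl1* to *Tgfbr1* are lower after StcE without overlap, and the other ratios overlap.

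The co-receptor genes did not pass the test. *Eng* (chromosome 2, 32646595 to 32682669, plus strand) had the highest level of the 10 genes, with 192.3, 178.8, 189.0, 181.6 and 182.3 FPKM in the saline samples and 172.7, 185.1, 181.9, 179.5 and 184.7 in the StcE samples. Apart from StcE replicate 1 at the bottom and saline replicates 1 and 3 at the top, the groups were intermixed. The means were 184.8 ± 5.62 and 180.8 ± 5.07 FPKM (SD, n = 5 each), with a 95% interval of the log2 fold change from -0.091 to 0.028 (limma adjusted p = 0.497, exact permutation p = 0.270). With at least 16444 fragments per sample, *Eng* was also the most precisely counted of the genes whose fragments were recovered.

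*Tgfbr3*, which encodes betaglycan (chromosome 5, 107106570 to 107289629, minus strand), had 0.975, 0.783, 0.923, 0.966 and 0.842 FPKM with saline and 0.812, 0.901, 0.903, 0.829 and 0.957 with StcE. The groups overlapped over most of their ranges. The log2 fold change of -0.013 had a 95% interval from -0.11 to 0.082 (exact permutation p = 0.690), and 125 to 205 fragments per sample lay behind the values. Endoglin transcripts outnumbered those of betaglycan by 206.9 ± 15.8 to 1 with saline and 205.8 ± 9.30 to 1 with StcE, per kilobase of gene.

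Set side by side, the levels with saline fell in the order *Eng*, *Acvrl1*, *Tgfbr2*, *Tgfb1*, *Ltbp3*, *Ltbp4*, *Tgfb2*, *Tgfbr1*, *Tgfbr3* and *Tgfb3*. Neighbours in this order were apart in every saline sample, except that the ranges of *Tgfbr2* and *Tgfb1* overlapped, with *Tgfbr2* the higher in 3 of 5 samples, and those of *Ltbp3* and *Ltbp4* overlapped, although *Ltbp3* was the higher in 5 of 5. With StcE 2 pairs of neighbours changed places, *Tgfb1* standing above *Tgfbr2* and *Tgfbr1* above *Tgfb2*, and no neighbours overlapped. The order depends on the gene length used, which covers all exons of a gene. For *Tgfb1* it was 5042 bases against 2573 in its longest transcript, and for *Tgfbr2* 8187 against 8092. A shorter length would raise *Tgfb1*, so its overlap and change of place with *Tgfbr2* hold only for this length. The length behind the *Ltbp3* values is not known, so its place is uncertain. Of the co-receptor genes 1 stood at the top of the order and 1 near its bottom, and the ligand genes were likewise spread from 35.5 FPKM for *Tgfb1* to 0.669 for *Tgfb3* with saline.

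**Figure D4:**
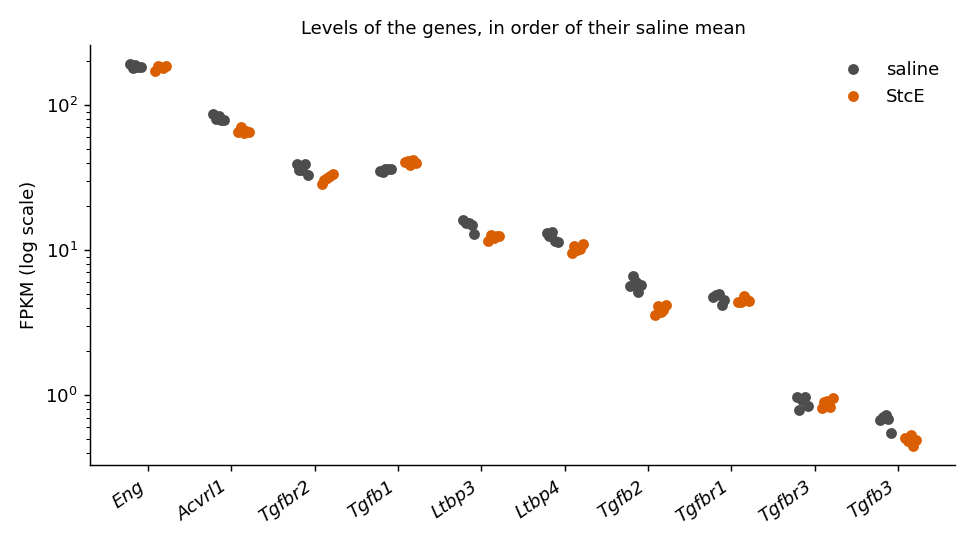
FPKM of the 10 genes on a log scale (vertical axis), ordered by their saline mean, with 1 point per sample for saline (grey) and StcE (orange). The levels run from 184.8 FPKM for *Eng* to 0.669 for *Tgfb3* in the saline means, and after StcE *Tgfb1* stands above *Tgfbr2*.

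Other genes of the pathway were counted in 4 lists that hold none of the 10 genes, and each count is to be read against the 6.41% lower and 5.52% higher of all tested genes (11.9% in either direction). In the list of latent complex and activation genes, 3 of the 10 tested genes were lower and 0 were higher, with a median log2 fold change of -0.12. *Itgb5*, an integrin subunit that pairs with αv, was at 5.08 ± 0.614 FPKM with saline and 3.96 ± 0.205 with StcE (log2 fold change -0.29, limma adjusted p = 0.0169), and its groups overlapped. *Furin*, the protease that cuts the propeptide from the ligand, fell from 21.2 ± 1.13 to 18.1 ± 1.00 FPKM without overlap (log2 fold change -0.22, limma adjusted p = 0.00881). *Lrrc32*, encoding GARP, which holds latent TGFβ at the cell surface, fell from 85.7 ± 5.38 to 77.7 ± 2.07 FPKM (log2 fold change -0.14, limma adjusted p = 0.0425) and was past the threshold by little. With 1 sample left out its adjusted p ran from 0.0199 to 0.0974, and the call stayed only without saline replicate 2 or 5. The most highly expressed genes of the list did not pass, *Itgb1* with 250.3 and 252.0 FPKM and *Thbs1*, an activator of latent TGFβ, with 229.1 ± 17.6 and 201.3 ± 16.3 FPKM (limma adjusted p = 0.0762).

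In the list of ligands and receptors of the BMP and activin branches, 3 of 9 tested genes were lower and 1 was higher. *Inhbb*, a subunit of activin B, fell from 2.55 ± 0.288 to 1.67 ± 0.229 FPKM (log2 fold change -0.41, limma adjusted p = 0.00418), whereas *Inhba*, the subunit of activin A, rose from 7.91 ± 0.693 to 9.50 ± 0.610 FPKM (log2 fold change 0.24, limma adjusted p = 0.0191). *Bmp4*, the most highly expressed ligand gene of this list, fell from 89.7 ± 1.66 to 75.7 ± 2.54 FPKM (log2 fold change -0.24, limma adjusted p = 1.7e-04). *Bmpr2*, the type II receptor that serves ALK1, fell from 8.51 ± 0.353 to 7.23 ± 0.753 FPKM with overlapping groups (log2 fold change -0.21, limma adjusted p = 0.0367). The call of *Bmpr2* was lost on leaving out saline replicate 1, 2, 3 or 4 or StcE replicate 3 or 5 (adjusted p up to 0.0845), and that of *Inhba* on leaving out StcE replicate 3 (adjusted p = 0.0503), after which 0 genes of this list were higher.

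Among SMADs and pathway regulators, 3 of 21 tested genes were lower and 1 was higher, 19.0% in either direction against 11.9% over all tested genes, and the median log2 fold change was 0.025. The share that was higher is no more than that over all tested genes. *Tgif1*, a repressor that binds SMADs, rose from 9.43 ± 0.312 to 11.1 ± 0.499 FPKM (log2 fold change 0.21, limma adjusted p = 0.00225). Lower genes were *Usp4*, a deubiquitinase of the type I receptor, with a log2 fold change of -0.11 (limma adjusted p = 0.0131), *Smurf1*, a ubiquitin ligase for SMADs and receptors, with -0.12 (adjusted p = 0.0280), and *Zfyve9*, which presents SMADs to the receptor, with -0.13 (adjusted p = 0.0427). With 1 sample left out, the call of *Smurf1* was lost without saline replicate 1 or 4 or StcE replicate 1, 3 or 5 (adjusted p up to 0.0722), and that of *Zfyve9* without any 1 of the saline samples or StcE replicate 1, 3 or 6 (up to 0.103). The number of lower genes was then 1 without saline replicate 1 or 4 or StcE replicate 1 or 3, and the number of higher genes was 3 without saline replicate 3 and 2 without StcE replicate 6. The genes of the signal-transducing SMADs that were tested did not pass, and the most highly expressed genes of the list, *Fkbp1a* and *Strap*, did not pass either (limma adjusted p = 0.0703 and 0.474).

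The list of known TGFβ and ALK1 target genes moved in both directions, with 5 of 20 tested genes lower and 3 higher and a median log2 fold change of -0.015. *Atoh8*, a target of ALK1 signalling, fell from 5.23 ± 0.450 to 3.59 ± 0.393 FPKM (log2 fold change -0.44, limma adjusted p = 0.00167), and *Hey1*, which answers to both Notch and ALK1, fell from 1.55 ± 0.110 to 0.980 ± 0.160 FPKM (log2 fold change -0.37, limma adjusted p = 0.00304). *Id2*, another BMP target, fell from 19.6 ± 1.99 to 15.9 ± 1.13 FPKM with overlapping groups (log2 fold change -0.28, limma adjusted p = 0.0242) and was not past the threshold without saline replicate 1, 2, 3 or 5 or StcE replicate 3 (adjusted p up to 0.0567). The number of lower target genes was 2 without saline replicate 1 or 3 or StcE replicate 3, and 3 without saline replicate 2 or StcE replicate 1.

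In contrast, *Cdkn2b*, a cell cycle inhibitor induced by TGFβ, rose from 31.2 ± 0.986 to 38.7 ± 1.81 FPKM (log2 fold change 0.30, limma adjusted p = 2.6e-04). *Bhlhe40* rose from 10.3 ± 0.389 to 12.8 ± 0.605 FPKM (log2 fold change 0.28, limma adjusted p = 4.8e-04) and *Klf10*, an early TGFβ response gene, from 15.7 ± 0.872 to 19.0 ± 0.432 (log2 fold change 0.26, limma adjusted p = 8.7e-04). The groups of *Cdkn2b*, *Bhlhe40* and *Klf10* did not overlap. *Col4a1*, a collagen of the basement membrane, was at 537.6 ± 27.7 and 468.9 ± 34.6 FPKM with overlapping groups (log2 fold change -0.20, limma adjusted p = 0.0307), a call lost without saline replicate 1, 3 or 4 or StcE replicate 1 or 3 (adjusted p up to 0.0790).

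**Figure D5:**
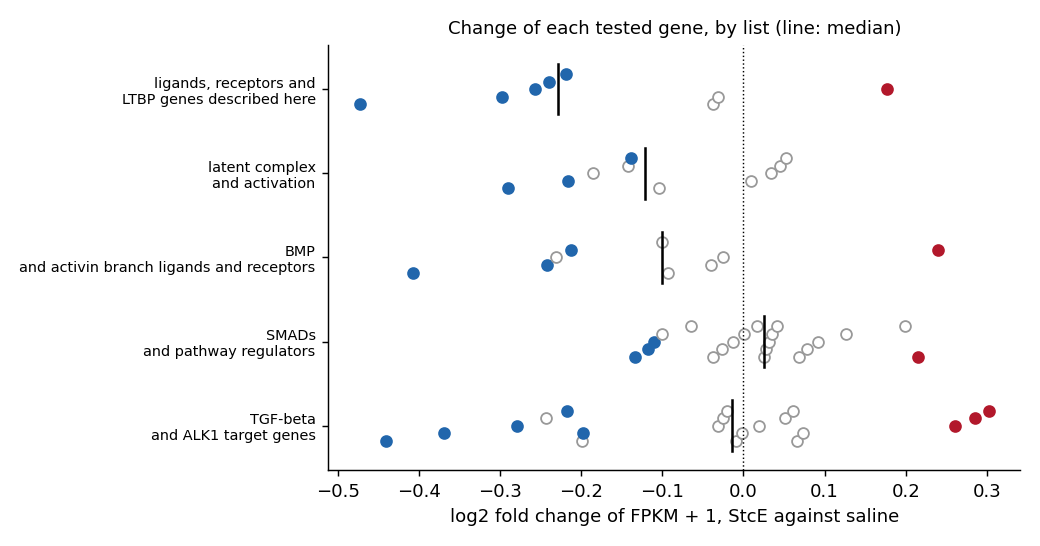
Log2 fold change of FPKM + 1, StcE against saline (horizontal axis), of each tested gene, with 1 row for the genes described above and 1 for each of the 4 other lists. Filled blue and red points are lower and higher genes past the threshold, open points are not past it, and the line is the median, which is -0.23 for the ligand, receptor and latent binding protein genes and between -0.12 and 0.025 for the other lists.

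Endothelial markers did not all move one way. Of the 12 markers, 6 were lower after StcE, 1 was higher and 5 did not pass the test, against 6.41% lower and 5.52% higher over all tested genes, and their median log2 fold change was -0.11. Their summed level ranged from 1968 to 2113 FPKM with saline and from 1914 to 1987 with StcE. *Cdh5* was at 509.1 ± 25.9 FPKM with saline and 462.7 ± 22.3 with StcE (log2 fold change -0.14, limma adjusted p = 0.0514). It did not pass the test, although its groups did not overlap (exact permutation p = 0.00794). Whether the decreases of *Acvrl1*, *Tgfbr2* and *Tgfb2* were related to those of the endothelial markers was not tested.

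The genes whose pattern over the 10 samples was most like that of *Tgfb2* were found by the root mean square difference of log2(FPKM + 1), each centred on its own mean. They were *Col8a1*, a short-chain collagen of vessel walls (difference 0.0670), *Fam107a* (0.0725) and *Atoh8* (0.0736). *Col8a1* was at 20.4 ± 1.01 FPKM with saline and 13.8 ± 0.531 with StcE, and *Fam107a* at 5.83 ± 0.215 and 3.95 ± 0.219. All samples share the same 2 groups, so a likeness of this kind reflects in large part that the genes differ between the groups by about as much.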

How the data were processed

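RNA of 5 saline and 5 StcE samples was measured by poly(A) selection and strand-specific paired-end sequencing. Per the labels, the submitters' processing notes name HISAT2 2.0.5, featureCounts 1.5.0-p3, DESeq2 1.32.0 and the build mm10, and the annotation release is not given in the sources used here. The authors deposited FPKM, 1 column per sample, for 27024 named genes beside 22874 empty rows, and 12 names stood on more than 1 row. Multiplied by GENCODE vM21 exon lengths, 96.6% of the values above 0 were whole fragments (tolerance 0.05). The scale of each sample followed its median-of-ratios size factor within 0.0446%, so the deposited FPKM had been normalised between samples. The values of *Ltbp3* were not whole with that length.

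The authors tested counts with DESeq2. Since FPKM are not counts, log2(FPKM + 1) of genes with a mean of at least 1 FPKM was tested here with limma 3.58.1 (lmFit, eBayes with trend) in R 4.3.3, the model holding the condition alone, and p-values were adjusted by Benjamini-Hochberg (threshold 0.05), beside exact two-sided permutation tests over samples. The procedure was tested on simulated data. Gene copies of at least 95% identity over 150 bases were searched with BLAST 2.17.0 for the 10 genes only, and overlapping genes were taken from GENCODE vM21. Reverse-strand overlaps matter only if counting ignored strand, which was not stated. Promoters came from a set of 32851 RefSeq promoters, and this set held 7 of the 10 genes. *Tgfb3*, *Tgfbr3* and *Acvrl1* had no entry in the set. *Ccn1* and *Ccn2* were matched under their older symbols.

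The members and lists were chosen with earlier results of these data known. Genes named are the 10, up to 6 genes past the threshold and the 2 most highly expressed of each pathway list, the highest endothelial marker and markers at 0, and the 3 genes nearest to *Tgfb2*. *Ltbp1*, *Ltbp2* and *Pdgfra* were named after their values were seen. Some results that fall under this rule are not reported here. The alternatives tried were 0.1 as the pseudocount, a minimum mean of 0.1 FPKM or none, scaling by the median ratio, the upper quartile or the sum of FPKM, array weights, eBayes without trend or robust, a block for the replicate number over 8 samples and those 8 without it, voom on recovered fragments, and each sample left out in turn.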

Additional observations from a re-analysis of the deposited data

Results flagged for a closer look

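A single sample stood apart from the other 4 of its group in 3 of 86 groups examined with Dixon's test, where chance gives about 4.3. *Tgfb3* made up 1.30% of the summed FPKM of the ligand genes in saline replicate 5, while the rest of the group had 1.63 to 1.71%. The *Id2* level of saline replicate 4 was 16.1 FPKM, and the rest of that group had 19.7 to 20.9. The *Itgb1* level of StcE replicate 1 was 244.7 FPKM, and the rest of the StcE group had 252.4 to 255.0.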

How the results depend on the processing

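Over 207 refits of the 10 genes, 203 fell on the same side of the threshold as reported. For *Tgfb3* and *Tgfbr3*, which lay below the level for testing, an unadjusted exact permutation p under 0.05 served as the threshold. Their fits with a minimum of 0.1 FPKM or no filter used the limma adjusted p instead. The genes past the threshold, with *Tgfb3* counted among them, kept their direction in 147 of 147 refits. This count of directions was in large part fixed in advance. The filter and eBayes settings cannot alter a log2 fold change, and leaving out 1 sample cannot reverse a gene whose groups do not overlap. For *Tgfb3* that separation also fixed the exact permutation p, at 0.0159 in each refit with 1 sample left out. Both counts of refits include the median-ratio scaling, which left the values unchanged. *Tgfbr3*, which was not past the threshold, changed sign in 3 refits, each with 1 sample left out (log2 differences of -0.035 to 0.0017 over the 10 such refits). The calls lost were *Tgfb3* with no filter (log2 fold change -0.16, limma adjusted p = 0.0589), *Tgfbr2* with no filter (-0.22, adjusted p = 0.0651) and with the replicate block (-0.22, adjusted p = 0.124), and *Ltbp3* with the replicate block (-0.27, adjusted p = 0.0861). With 1 sample left out at a time, log2 fold changes ran from 0.16 to 0.19 for *Tgfb1*, -0.51 to -0.43 for *Tgfb2*, -0.25 to -0.19 for *Tgfbr2* (adjusted p 0.0077 to 0.0496), -0.32 to -0.28 for *Acvrl1*, -0.30 to -0.23 for *Ltbp3* and -0.27 to -0.21 for *Ltbp4*. *Tgfb3* and *Tgfbr3* rest on few fragments and were not refitted with the block, array weights, voom or other eBayes settings, and *Ltbp3* has no voom value.

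The labels do not say whether same replicate numbers mark paired samples. The deviations of same-numbered samples over the tested genes correlated at -0.0966 to 0.0538. These values show no shared deviation but cannot settle how the samples were set up. With the replicate block, over 8 samples, 349 genes passed (162 lower, 187 higher) in place of 1320 (709 lower, 611 higher), 3 of the 10 genes were lower in place of 5, 1 latent complex gene and 2 target genes were lower, 0 SMAD or regulator genes passed in either direction, and 0 BMP or activin genes were higher. Those 8 samples fitted with no block gave 452 lower genes, 0 lower and 2 higher SMAD genes and 0 higher BMP genes, so fewer samples account for part of the fall. Without a filter, which tests every gene, 801 passed (409 lower, 392 higher), with 1 latent complex gene higher, 1 SMAD gene and 2 target genes lower and 0 BMP genes higher. Scaling by the sum of FPKM gave 790 genes (518 lower, 272 higher), of which 65.6% were lower against 53.7% as reported, and scaling by the upper quartile gave 1292 (639 lower, 653 higher), of which 49.5% were lower. A minimum of 0.1 FPKM left 3 target genes lower. In the SMAD list 2 genes were higher with upper quartile scaling, robust eBayes or array weights, and 3 with voom. Leaving out 1 sample gave 793 to 1255 genes, 409 to 667 lower and 384 to 588 higher, the lowest without StcE replicate 3 (838 and 428 lower without saline replicate 1), with 1 to 3 lower and 1 to 3 higher SMAD genes, 2 to 6 lower target genes and 0 to 1 higher BMP genes. The median-ratio scaling says nothing, since the deposited FPKM carry it already. The 23 pathway genes refitted kept their side of the threshold in 430 of 506 refits, with the median-ratio scaling counted, and were weaker in 69 and stronger in 7.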
